A study of Mus musculus with 6 samples.

Results

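This account covers 9 genes that mark homeostatic microglia, the resident macrophages of the brain in their undisturbed state: *Cx3cr1*, *Csf1r*, *P2ry12*, *Gpr34*, *Tmem119*, *Siglech*, *Fcrls*, *Olfml3* and *Sall1*. They were matched by symbol to the array annotation, and all 9 were found, each on 1 transcript cluster (the set of probes that measures a gene), among 19505 genes with a symbol. At postnatal day 10 none of the 9 differed between the milk groups beyond the spread between arrays. Their log2 fold changes with KO milk relative to WT milk ran from -0.38 for *P2ry12* to 0.16 for *Olfml3*. The array that departed most, KO milk replicate 3, read low for *P2ry12* and *Gpr34* and high for *Csf1r*, *Olfml3* and *Cx3cr1*.

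Microglia enter the brain from the embryonic yolk sac and then renew themselves in place, and in the first postnatal weeks they prune synapses, clear dying cells and support young oligodendrocytes in the developing hippocampus. Their survival depends on signals through CSF1R, and TGF-beta from neighbouring cells together with transcription factors such as SALL1 keeps them in the homeostatic state. In that state they carry receptors that read signals from neurons and from injured cells, and many of these receptor genes are known to go down when microglia are activated.

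Hippocampal RNA from *LAO1* KO pups was measured on 6 Clariom S mouse arrays, 3 for *LAO1* KO with KO milk and 3 for *LAO1* KO with WT milk. LAO1 is an L-amino acid oxidase of mouse milk that produces hydrogen peroxide. Pups of both groups lacked it, the dams of the KO milk group lacked it too, and the dams of the WT milk group were wild-type. Per the methods, pups were cross-fostered on the day of birth, litters are not given for the arrays, and no wild-type pups were measured, so a difference in milk and any other difference between KO and WT dams cannot be told apart. Levels are log2 intensities, on which a difference of 1 is a doubling of signal. The p-values measure the spread between these 6 samples.

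All pups are labelled male, whereas the Y-linked gene *Uty* read 3.39, 10.93 and 3.62 in KO milk replicates 1, 2 and 3 and 11.12, 3.99 and 10.74 in WT milk replicates 1, 2 and 3. *Kdm5d* and *Eif2s3y*, also Y-linked, were high in the same 3 arrays, so 3 of 6 arrays went against their label. Per the methods, pups of both sexes were used in the study. Array medians lay between 6.89 and 6.92. KO milk replicate 3 lay 0.479 to 0.537 from the others and those 0.321 to 0.407 from each other (root mean square of the log2 differences). It was the lowest array in 24% and the highest in 25.2% of 22206 clusters. The 1091 olfactory receptor clusters, genes of the nose, served as a gauge of background and had a median of 4.30 and a 95th percentile of 5.68. Mean levels of all 9 microglia genes lay above that percentile, between the 49.4th (*Sall1*) and the 91.2nd percentile (*P2ry12*) of all clusters. Of the 11 measured hippocampal neuron genes, 11 lay above the same gauge, among them *Prox1*, the granule cell factor of the dentate gyrus. So did 11 of 11 astrocyte genes, 12 of 12 endothelial and mural cell genes, 10 of 10 meninges and fibroblast genes and 14 of 14 myelin genes. Passing the gauge therefore cannot check the tissue label.

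PU.1, encoded by *Spi1*, is the lineage factor of macrophages and microglia and binds purine-rich DNA with a GGAA core. The windows before the gene starts are shown for *P2ry12* and *Fcrls*, which hold GGAAGT, a longer motif with this core. They are also shown for *Cx3cr1* and *Olfml3*, which lack GGAAGT although GGAA alone occurs in both. In KO milk replicate 3 *P2ry12* was low, *Cx3cr1* and *Olfml3* were high and *Fcrls* lay within the WT milk range. *Siglech* and *Sall1*, which also carried GGAAGT, stood at 0.0029 and 0.17 from the WT milk mean in that array. Whether the motif bears on these levels was not tested. RefSeq promoter sequences of GRCm38.p6 were at hand for 6 of the 9 genes. The 250 bases before the annotated start are given for 4 of them, 5′ to 3′, with each GGAAGT, or ACTTCC where the motif lies on the other strand, in capitals.
*P2ry12*, chr3:59262986-59263235, minus strand: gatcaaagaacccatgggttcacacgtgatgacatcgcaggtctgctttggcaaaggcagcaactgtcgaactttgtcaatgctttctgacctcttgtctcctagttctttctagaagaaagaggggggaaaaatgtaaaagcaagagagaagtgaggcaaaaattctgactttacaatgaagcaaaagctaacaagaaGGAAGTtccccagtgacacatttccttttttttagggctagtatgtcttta
*Fcrls*, chr3:87263525-87263774, minus strand: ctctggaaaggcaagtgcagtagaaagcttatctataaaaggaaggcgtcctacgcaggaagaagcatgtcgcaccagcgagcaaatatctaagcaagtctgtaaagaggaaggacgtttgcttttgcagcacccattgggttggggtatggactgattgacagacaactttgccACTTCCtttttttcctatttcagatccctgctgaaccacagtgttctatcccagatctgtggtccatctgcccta
*Cx3cr1*, chr9:120068297-120068546, minus strand: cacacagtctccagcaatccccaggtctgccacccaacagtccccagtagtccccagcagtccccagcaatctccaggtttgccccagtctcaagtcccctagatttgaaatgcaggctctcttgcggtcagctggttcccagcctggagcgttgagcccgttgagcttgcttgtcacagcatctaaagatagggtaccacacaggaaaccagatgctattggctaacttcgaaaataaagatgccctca
*Olfml3*, chr3:103738002-103738251, minus strand: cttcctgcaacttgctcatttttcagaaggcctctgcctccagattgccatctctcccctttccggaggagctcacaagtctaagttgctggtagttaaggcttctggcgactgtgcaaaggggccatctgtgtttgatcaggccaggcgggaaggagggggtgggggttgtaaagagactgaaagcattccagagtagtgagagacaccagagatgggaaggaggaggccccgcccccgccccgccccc

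The motif GGAAGT was present on either strand in at least 1 window of 4 of the 6 genes (*P2ry12*, *Fcrls*, *Siglech* and *Sall1*). Counted by single window and not by gene, it was present in 19.7% of 32851 windows of the same length. A gene with several windows has more places for the motif, so the share of genes and the share of windows cannot be compared directly. *Sall1* had 3 windows in the table, of which 1 carried it. It was not among the letters of the *Cx3cr1* and *Olfml3* windows shown. Such matches describe the letters and do not show binding.

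*Cx3cr1* encodes the receptor for fractalkine, a chemokine that neurons display on their surface. Its level was 7.88, 7.71 and 8.53 in KO milk replicates 1, 2 and 3 and 8.17, 7.90 and 8.10 in WT milk replicates 1, 2 and 3. KO milk replicate 3 was the highest and KO milk replicate 2 the lowest of all 6 arrays, and the WT milk arrays lay between them. Group means were 8.04 ± 0.44 with KO milk and 8.06 ± 0.14 with WT milk (SD, n = 3 each).

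*Csf1r* encodes the receptor tyrosine kinase for CSF1 and interleukin 34, on which microglia depend to survive. Its level was 10.56, 10.50 and 11.79 with KO milk and 11.03, 10.55 and 10.88 with WT milk. KO milk replicates 1 and 2 lay beside the lowest WT milk array, and KO milk replicate 3 lay above all others. Means were 10.95 ± 0.73 with KO milk and 10.82 ± 0.25 with WT milk (SD, n = 3 each). In bulk tissue, fewer microglia and less RNA of a gene per microglia cannot be told apart.

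*P2ry12* encodes the ADP receptor by which microglial processes find sites of injury. Its level was 12.67, 13.13 and 11.50 with KO milk and 13.01, 12.48 and 12.94 with WT milk. The KO milk arrays held both the highest and the lowest value, and replicate 3 lay below every other array. Means were 12.44 ± 0.84 with KO milk and 12.81 ± 0.29 with WT milk (SD, n = 3 each). *Gpr34*, a receptor for lysophosphatidylserine that belongs to the same receptor family, read 10.33, 10.66 and 9.45 with KO milk and 10.68, 9.95 and 10.49 with WT milk. Again KO milk replicate 3 was lowest, and WT milk replicate 2 was the lowest of its own group.

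*Tmem119*, a membrane protein used to tell microglia from other macrophages, read 7.26, 6.96 and 7.35 with KO milk and 7.73, 7.21 and 7.50 with WT milk. All 3 KO milk arrays lay below the WT milk mean of 7.48 ± 0.26 (SD, n = 3), but WT milk replicate 2 lay below KO milk replicates 1 and 3. *Siglech*, a sialic acid-binding lectin that signals through the adaptor TYROBP and is also found in plasmacytoid dendritic cells, read 8.60, 8.92 and 8.77 with KO milk and 8.84, 8.91 and 8.54 with WT milk. The ranges of the groups lay almost on top of each other. *Fcrls*, a scavenger receptor-like member of the Fc receptor-like family in rodents, read 10.56, 10.84 and 10.81 with KO milk and 10.68, 10.23 and 10.99 with WT milk, so that all KO milk values fell inside the WT milk range.

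*Olfml3*, a secreted olfactomedin-domain protein, read 9.11, 9.48 and 10.03 with KO milk and 9.57, 9.16 and 9.43 with WT milk. KO milk replicate 3 was the highest and KO milk replicate 1 the lowest array. *Sall1*, a zinc-finger transcription factor of microglial identity that neural progenitors express as well, read 6.73, 6.74 and 7.0 with KO milk and 6.82, 6.76 and 6.93 with WT milk. It had the narrowest spread of the 9 among WT milk arrays, with an SD of 0.09 (n = 3). The plot of levels by milk group shows all 9 genes on panels of equal height.

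**Figure D1:**
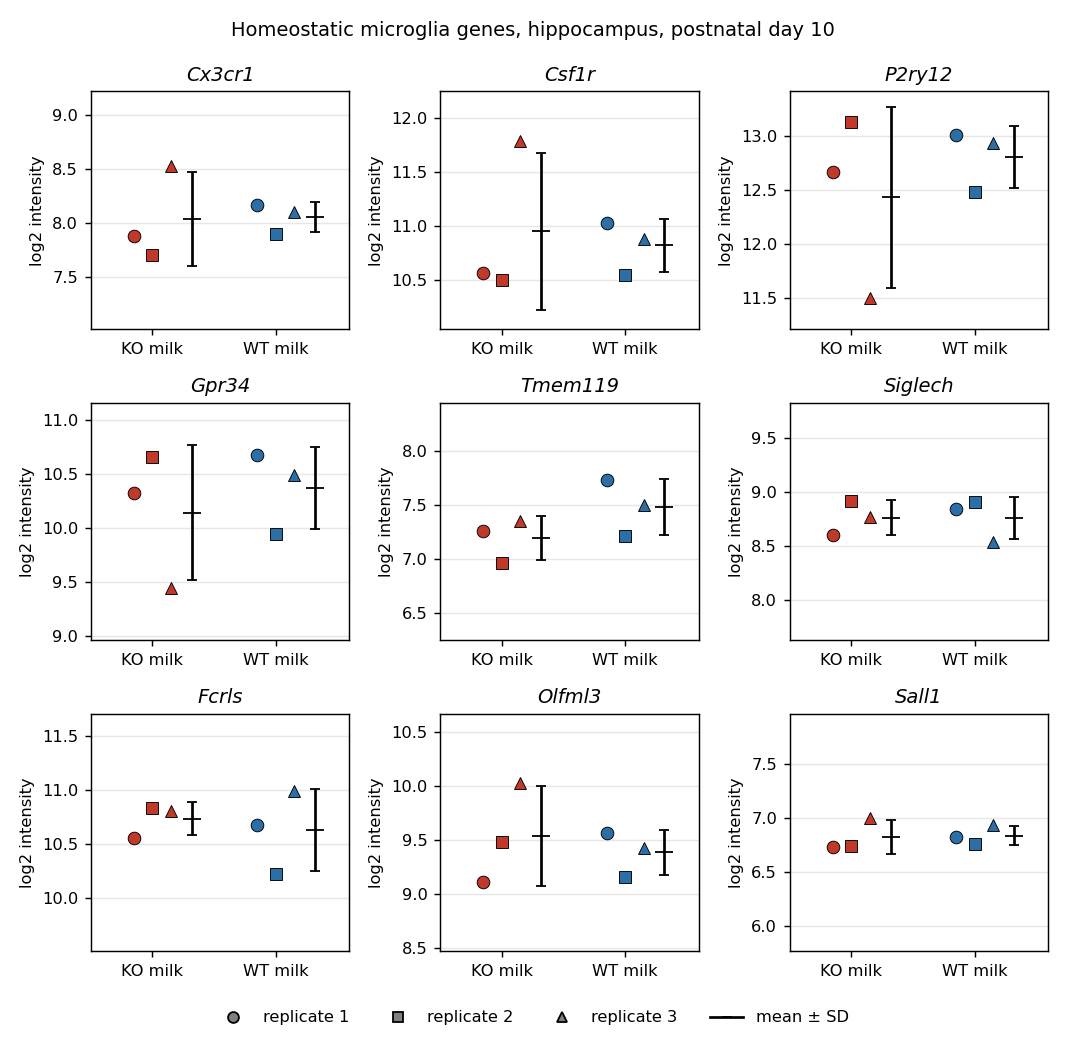
Log2 intensity of the 9 homeostatic microglia genes in each array, KO milk on the left and WT milk on the right of each panel, with mean and SD (n = 3 each) and a symbol for each replicate; every panel spans the same number of log2 units. The groups overlap in every panel, and KO milk replicate 3 (triangle) is at an edge for *Cx3cr1*, *Csf1r*, *P2ry12*, *Gpr34*, *Olfml3* and *Sall1*.

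The question set by the design was whether the milk of dams with or without LAO1 changed the hippocampus of pups that lacked it themselves. For the microglia genes no such difference was detected. By limma, 0 of 9 passed an adjusted p of 0.05, as did 0% of all clusters, and 0 of 9 passed an unadjusted p of 0.05, whereas 1.61% of all clusters were higher and 1.66% lower with KO milk at that level. The groups overlapped for 9 of 9 genes, whereas they did not overlap for 4.26% of all clusters on the higher and 4.17% on the lower side. The median log2 fold change of the 9 genes was -0.0086, against 0.0043 over all clusters, with 3 genes above 0 and 6 below.

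The widest difference was that of *P2ry12*, at -0.38 (standard error 0.35, 95% interval -1.15 to 0.40, unadjusted p = 0.308 from limma). *Tmem119* had the smallest p, with a log2 fold change of -0.29 (standard error 0.20, 95% interval -0.73 to 0.15, unadjusted p = 0.174 from limma). *Gpr34* was at -0.22 (95% interval -0.90 to 0.45). On the other side of 0, *Olfml3* was at 0.16 (95% interval -0.38 to 0.69), *Csf1r* at 0.13 (95% interval -0.57 to 0.83) and *Fcrls* at 0.10 (95% interval -0.38 to 0.58). *Cx3cr1*, *Siglech* and *Sall1* had values of -0.016, -0.0016 and -0.0086, with 95% intervals of -0.52 to 0.49, -0.41 to 0.40 and -0.39 to 0.37. The adjusted p was 0.9996 for each gene, and the exact two-sided permutation test, which cannot go below p = 0.1 with 3 arrays against 3, gave no p under 0.3. Of the 9 intervals, 8 lay between -1 and 1, so that a doubling or halving lay outside them, whereas that of *P2ry12* reached further down.

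**Figure D2:**
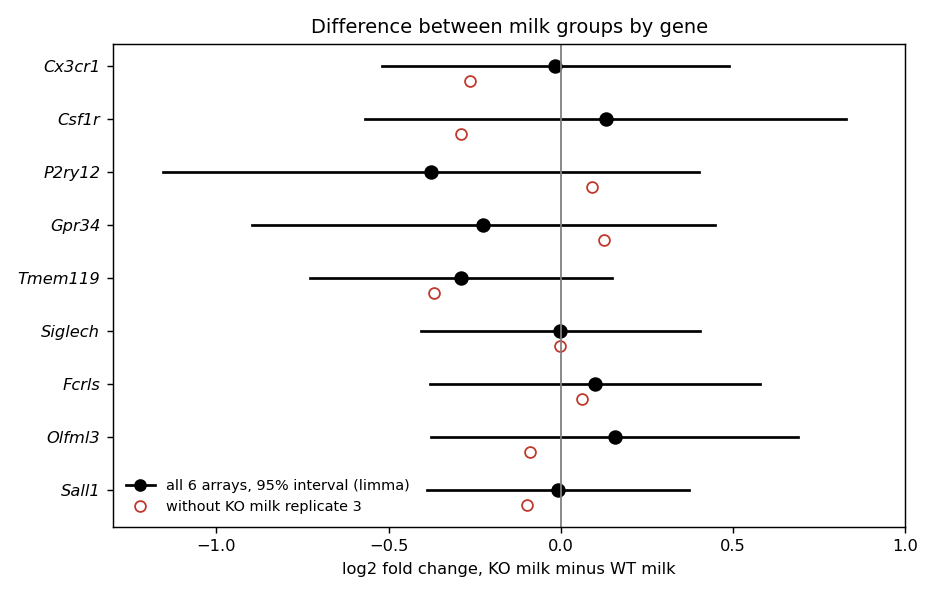
Log2 fold change with KO milk relative to WT milk for each of the 9 genes, as the estimate with its 95% interval from limma over 6 arrays (filled) and as the estimate without KO milk replicate 3 (open). Every interval holds 0, and the open points of *P2ry12*, *Gpr34*, *Csf1r* and *Olfml3* lie on the other side of 0 from the filled ones.

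KO milk replicate 3 set much of the spread of the KO milk group. Measured from the WT milk mean, *P2ry12* stood at -1.31 and *Gpr34* at -0.92 in this array, whereas *Csf1r* stood at 0.97, *Olfml3* at 0.65 and *Cx3cr1* at 0.48. *P2ry12* and *Csf1r* thus departed in opposite directions within a single array. The other 4 genes lay between -0.13 (*Tmem119*) and 0.17 (*Fcrls* and *Sall1*). This array was the lowest of 6 for 2 genes and the highest for 4, beside the 24% and 25.2% of all clusters given above. Set against the mean of the other 5 arrays, 0.896% of all clusters departed further down than *P2ry12* and 0.279% further up than *Csf1r*. For *Gpr34* 3.06% lay further down, and for *Olfml3* and *Cx3cr1* 3.70% and 6.49% lay further up.

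For genes of other cell types the same array was the lowest for 6 and the highest for 4 of 12 endothelial and mural cell genes, for 3 and 4 of 11 astrocyte genes and for 4 and 4 of 16 blood leukocyte genes. It was the lowest for 3 and the highest for 2 of 11 hippocampal neuron genes, for 6 and 0 of 12 choroid plexus genes and for 5 and 0 of 14 myelin genes, so that the share at an edge differed between lists. What part the departure of the whole array had in the values of the microglia genes was not tested. Without it, *P2ry12* was at 0.09, *Gpr34* at 0.12, *Csf1r* at -0.29, *Olfml3* at -0.09, *Cx3cr1* at -0.26 and *Sall1* at -0.10, with *Tmem119* at -0.37 and *Fcrls* at 0.06. None of the 9 passed an unadjusted p of 0.05 in that fit by limma, and the median was -0.09. Without KO milk replicate 2, *P2ry12* had a log2 fold change of -0.73 (unadjusted p = 0.0493 and adjusted p = 0.792 from limma), with a range of -0.73 to 0.09 over the 6 arrays left out in turn.

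**Figure D3:**
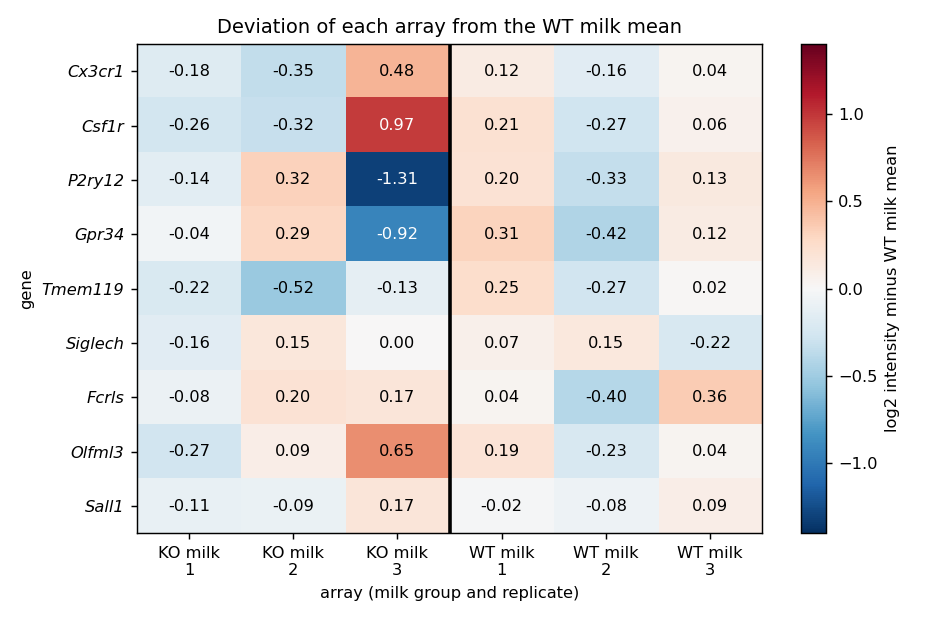
Log2 intensity of each gene (rows) in each array (columns, KO milk on the left of the black line and WT milk on the right) minus the mean of the 3 WT milk arrays, red for above and blue for below. In KO milk replicate 3 *P2ry12* and *Gpr34* are at -1.31 and -0.92 and *Csf1r* and *Olfml3* at 0.97 and 0.65, and in WT milk replicate 2 all genes but *Siglech* are below 0.

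The remaining arrays differed less. In KO milk replicate 1 all 9 genes lay below the mean of the WT milk arrays, by 0.04 (*Gpr34*) to 0.27 (*Olfml3*). In KO milk replicate 2, 4 of 9 lay below it, with *Tmem119* at -0.52 and *P2ry12* at 0.32. WT milk replicate 2 was the lowest array of its group for 8 of 9 genes, with *Siglech* as the exception. The SD among KO milk arrays ran from 0.15 to 0.84 and among WT milk arrays from 0.09 to 0.38, and it was larger with KO milk for 6 of the 9 genes.

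Since 3 of the arrays lacked Y-linked signal, the difference between milk groups was also taken within each kind of array. Among arrays with Y-linked signal (KO milk replicate 2 against WT milk replicates 1 and 3), *Tmem119* stood at -0.66, *Csf1r* at -0.46 and *Cx3cr1* at -0.43, and *Siglech*, *P2ry12* and *Gpr34* at 0.23, 0.16 and 0.08. Among arrays without it (KO milk replicates 1 and 3 against WT milk replicate 2), *Csf1r*, *Fcrls*, *Olfml3* and *Cx3cr1* stood at 0.63, 0.45, 0.41 and 0.31, and *P2ry12* and *Siglech* at -0.39 and -0.23. The sign differed between the kinds of array for all 9 genes, although *Fcrls* and *Olfml3* lay within 0.02 of 0 where Y-linked signal was present. Each of these comparisons rests on a single array on one side, so they carry no test, and whether the milk effect differed with the Y-linked signal was not tested. With the Y-linked signal as a term in the fit, the smallest unadjusted p of the 9 was 0.237 from limma.

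The 9 genes did not rise and fall as a unit over the arrays. Pearson correlations over the 6 arrays, which share 1 normalization, are given as a description. Of 36 pairs, 22 were above 0 and 14 below, with a median of 0.12, and without KO milk replicate 3 30 were above 0, with a median of 0.38. *P2ry12* and *Gpr34* had an r of 0.97, and 0.96 without that array. *Cx3cr1* and *Csf1r* had an r of 0.97, and 0.95 without it. Between *P2ry12* and *Csf1r* r was -0.76 with the array and 0.38 without it. The mean deviation of the 9 genes from their own 6-array means was -0.13, 0.01 and 0.04 with KO milk and 0.18, -0.19 and 0.10 with WT milk.

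Of 10044 other genes at or above the median intensity, those whose levels followed this mean profile most closely over the 6 arrays were *Scn3b*, *Apbb1ip*, *Scarb1*, *Mylip*, *Vsir* and *Ssx2ip*, with correlations of 0.983 to 0.997. These 6 were picked by rank from the same 6 arrays, so the correlations carry no test, and a shared role with the microglia genes was not tested. *Scn3b* encodes a sodium channel beta subunit of neurons, *Apbb1ip* an adaptor of integrin activation in leukocytes, *Scarb1* an HDL receptor, *Mylip* a ubiquitin ligase that acts on the LDL receptor, and *Vsir* the immune checkpoint protein VISTA. *Vsir* read 7.77, 8.07 and 8.04 with KO milk and 8.41, 7.65 and 8.33 with WT milk, with the groups overlapping.

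The ligands, growth factors and adaptors that act with the 9 genes were measured in the same tissue. Of 11 such genes 0 passed an unadjusted p of 0.05 in either direction by limma, and their median log2 fold change was 0.04. Among the ligands, *Cx3cl1*, which encodes fractalkine, averaged 13.95 ± 0.44 with KO milk and 14.18 ± 0.19 with WT milk (SD, n = 3 each), a log2 fold change of -0.23 (standard error 0.23). *Csf1* and *Il34*, the ligands of CSF1R, were at -0.06 and 0.24. *Tgfb1*, which encodes the TGF-beta that maintains microglia, had the widest value, 0.43 (standard error 0.26, unadjusted p = 0.12 from limma). It read 8.77, 8.79 and 9.66 with KO milk and 8.70, 8.38 and 8.85 with WT milk, so KO milk replicate 3 was again the highest array. *Tgfbr1* and *Tgfbr2*, the receptor subunits, were at 0.07 and -0.07, the signal carrier *Smad3* at 8.2e-04 and *Nrros*, which anchors latent TGF-beta on microglia, at 0.05 with a level below the background gauge. *Tyrobp*, the adaptor of SIGLEC-H and TREM2, was at 0.27, and *Gas6* and *Pros1*, the ligands of phagocytic TAM receptors, were at 0.04 and -0.26.

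Of 10 listed transcription factors of microglia 9 were measured, and 0 passed an unadjusted p of 0.05 by limma, with a median of 0.03. *Spi1* averaged 11.41 ± 0.14 with KO milk and 11.55 ± 0.15 with WT milk (SD, n = 3 each), a log2 fold change of -0.14 (standard error 0.18). The interferon regulatory factor *Irf8* was at -0.05, *Runx1* at 0.12, *Ikzf1* at 0.22, *Bhlhe41* at 0.20 and *Cebpa* at 0.03. *Mef2a*, *Mef2c* and *Smad4*, which neurons express as well, were at -0.29, -0.12 and 0.04.

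Further microglia genes were measured as well. Over the 5 other microglia lists, 67 different genes were measured, of which 0 passed an unadjusted p of 0.05 by limma. Of these, 32 lay above 0 and 35 below, and values ran from -0.53 (*Cd9*, unadjusted p = 0.0566 from limma) to 0.43 (*Tgfb1*). By limma, *Cd9* was lower at an unadjusted p under 0.05 with array weights, the replicate block or another variance model. It also was without KO milk replicate 2. *Hpgds* was lower and *C5ar1* higher at that level without WT milk replicate 3, and *Mertk* was higher in the unmoderated test. The 20 measured genes of general microglial identity had a median of -0.06, with 5 above 0 and 15 below. *Aif1*, which encodes the stain target IBA1, was at -0.25, the integrin *Itgam* at -0.04 and the protease *Ctss* at -0.20. The 14 complement and phagocytosis genes had a median of 0.09, with 10 above 0 and 4 below. The C1q chains *C1qa*, *C1qb* and *C1qc* were at 0.10, 0.21 and 0.01. The 17 genes of activated microglia and of the microglia found in young white matter had a median of -0.07, with 7 above 0 and 10 below. *Apoe* was at 0.06, the lipase *Lpl* at -0.07 and *Itgax* at 0.07 near background. *Apoe* and *Lpl* are made by astrocytes and neurons too.

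Other macrophages and blood cells can carry some of the 9 genes. Of 14 border macrophage genes 5 lay above the background gauge. Their mean level ran from 5.73 to 5.87 with KO milk and from 5.62 to 5.93 with WT milk. By limma 1 of the 14 was higher with KO milk before adjustment, the lectin *Clec10a* (0.54, standard error 0.24, unadjusted p = 0.0464 and adjusted p = 0.9996), and 0 were lower. Its value ran from 0.37 to 0.73 with each array left out in turn, and it missed an unadjusted p of 0.05 without KO milk replicate 1 or 3 or WT milk replicate 1 or 3. With the Y-linked signal as a term it was at 0.35 and missed that p as well. *Clec10a* also missed it with array weights, with the replicate block and in the unmoderated test. *Mrc1*, the mannose receptor of these cells, was at -0.07, and *Cd163* and *Lyve1* lay below the gauge in both groups. Of 16 blood leukocyte genes 1, *Ly6c2*, lay above the gauge, and the mean level of the list ran from 4.11 to 4.31 with KO milk and from 4.13 to 4.27 with WT milk. *Ccr2*, the chemokine receptor of monocytes, averaged 3.33 ± 0.16 with KO milk and 3.19 ± 0.11 with WT milk (SD, n = 3 each), both below the background median, and *Plac8*, also below the gauge, was at 0.21. *Ly6c2*, a surface protein of inflammatory monocytes, averaged 7.04 ± 0.23 with KO milk and 7.42 ± 0.35 with WT milk (SD, n = 3 each), a log2 fold change of -0.38 (standard error 0.22), the widest of the list, and it did not pass an unadjusted p of 0.05 by limma. Without WT milk replicate 2 it did, at -0.53. The other genes of the list lay below the gauge, and which cells gave the *Ly6c2* signal was not tested.

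Markers of neighbouring tissue did move between arrays. The mean level of 12 choroid plexus genes was 6.17, 8.45 and 5.96 with KO milk and 8.42, 7.89 and 7.49 with WT milk, and 10 of the 12 lay above the gauge on average. *Ttr*, the transthyretin of the choroid plexus, read 10.76, 18.18 and 7.69 with KO milk and 17.74, 17.68 and 17.10 with WT milk. The median log2 fold change of the list was -0.74 (-1.26 without KO milk replicate 2 and -0.43 without KO milk replicate 1). *Kl* was at -0.82 (-1.39 to -0.42 with each array left out in turn) and *Folr1* at -1.20 (-2.45 to -0.55), neither past an unadjusted p of 0.05. Before adjustment limma put 2 of the 12 lower with KO milk, *Ttr* and *Clic6*, and *Clic6* missed that p with the Y-linked signal as a term. The number ran from 0 without KO milk replicate 1 or 3 or WT milk replicate 1 to 10 without KO milk replicate 2. KO milk replicates 1 and 3 were low in the list and in *Ttr*, and in these arrays *Csf1r* read 10.56 and 11.79. The part of choroid plexus tissue, which holds macrophages of its own, in the levels of the 9 genes was not tested. The 10 genes of meninges and fibroblasts had a median of -0.04 (-0.09 to 0.10 with each array left out), with the matrix genes *Dcn*, *Lum* and *Col1a1* at -0.09, -0.34 and 0.07.

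Beside the microglia genes, the 11 astrocyte genes had a median of -0.09 (0.03 without KO milk replicate 1), with *Gfap*, *Aqp4* and *Aldh1l1* at -0.06, -0.25 and 0.03, and 1 gene, *S100b*, was lower before adjustment. *S100b* missed an unadjusted p of 0.05 without KO milk replicate 3 or WT milk replicate 2 or 3. It also missed it with the Y-linked signal as a term, with quantile normalization repeated and in the unmoderated test. The 12 endothelial and mural cell genes had a median of -0.07 (0.01 without KO milk replicate 1 and -0.20 without WT milk replicate 2), with *Cldn5*, *Pecam1* and *Cdh5* at -0.14, -0.26 and 0.07 and 0 past that p. The 11 hippocampal neuron genes had a median of 0.09 (0.26 without WT milk replicate 1 and -0.02 without WT milk replicate 2). *Prox1* was higher before adjustment, at 0.54, but not without KO milk replicate 2 or WT milk replicate 2, and *Neurod2* and *Neurod6* were at 0.12 and -0.03. The 14 measured myelin genes had a median of -0.88, and limma put 12 of them lower with KO milk before adjustment (unadjusted p of 0.05) and 0 after it, with 11 to 13 lower when each array was left out in turn. Before adjustment the number was 8 in the unmoderated test and 14 with array weights. *Mobp* and *Mog* were at -1.11 and -0.72. *Mbp* averaged 15.75 ± 0.37 with KO milk and 16.55 ± 0.06 with WT milk (SD, n = 3 each). The 9 microglia genes, measured on the same arrays, had 0 past that p. These lists were set side by side as counts and medians, and the difference between them was not tested.

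**Figure D4:**
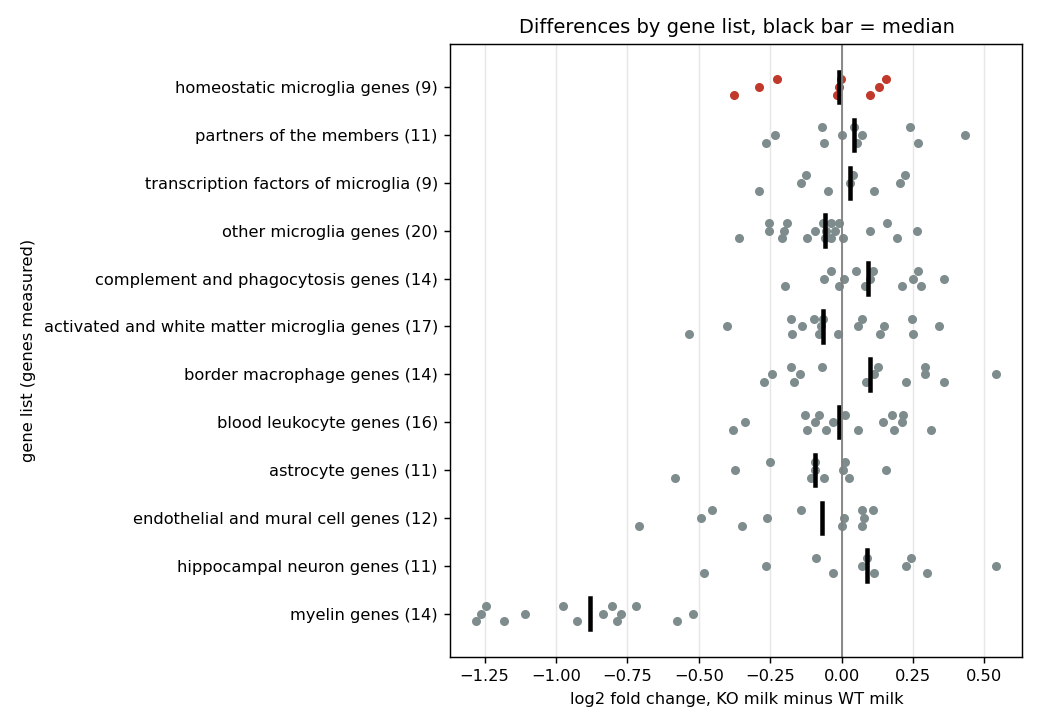
Log2 fold change with KO milk relative to WT milk of every measured gene of 12 lists (points) with the median of each list (black bar) and the number of genes in brackets. The homeostatic microglia genes (red) spread from -0.38 to 0.16 around a median of -0.0086, and the myelin genes lie at the left, with a median of -0.88.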

How the data were processed

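RNA of hippocampus at postnatal day 10 was hybridized to 6 Clariom S arrays. The authors made the deposited log2 intensities with Transcriptome Analysis Console and RMA, per the labels (background correction, normalization between arrays, summary of probes); build and annotation version are not given in the sources used here. Of 22206 clusters, 19572 carried 1 symbol and 2634 none, and a gene was represented by its brightest cluster. Groups follow the genotype of the dam in the labels. The model (lmFit and eBayes of limma 3.58.1, under R 4.3.3) ran over all clusters (KO milk minus WT milk, no filter, Benjamini-Hochberg adjustment, threshold 0.05, 95% intervals), and the fit was tested on simulated data. Exact permutation tests used scipy 1.17.1.

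Named are the 9 genes, all partners and transcription factors, the first 3 measured genes of each other list described, microglia, macrophage or leukocyte genes at an unadjusted p under 0.05, 3 Y-linked genes and the 6 most alike genes. *Clic6* and *S100b* were named after their values were seen, as the genes behind counts of 2 and 1. So were *Cd9*, *Hpgds*, *C5ar1* and *Mertk*, as microglia genes that passed only under an alternative. Of 8 erythrocyte genes 2 were measured, *Alas2* (0.09) and *Slc4a1* (0.05). The members and lists were chosen with earlier results of these data known. Listed genes that were not measured are not analysed here. Alternatives were other normalizations, a filter on intensity, another variance model, array weights, the unmoderated test, the replicate number as a block, Y-linked signal as a term and each array left out. The number of arrays limits the precision.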

Additional observations from a re-analysis of the deposited data

How the results depend on the processing

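No alternative gave any of the 9 genes an adjusted p under 0.05 (lowest 0.792 from limma). Of 125 values of single genes under 14 alternatives, 100 kept their sign and 25 changed it, all for genes that did not pass. With quantile normalization repeated, *Cx3cr1*, *Siglech* and *Sall1* turned to 0.031, 0.058 and 0.016, with cyclic loess *Cx3cr1* and *Siglech* to 0.0032 and 0.024, with array weights *Csf1r* and *Olfml3* to -0.11 and -0.025, and with the Y-linked term *Siglech* and *Gpr34* to 9.7e-04 and 0.011. Leaving out 1 array at a time gave ranges of -0.26 to 0.15 for *Cx3cr1*, -0.73 to 0.089 for *P2ry12*, -0.42 to -0.17 for *Tmem119*, -0.29 to 0.36 for *Csf1r*, -0.10 to 0.28 for *Fcrls*, -0.11 to 0.079 for *Siglech*, -0.48 to 0.12 for *Gpr34*, -0.089 to 0.37 for *Olfml3* and -0.10 to 0.040 for *Sall1*. The cause of these turns was not tested. Under the same omissions, the median of the 9 genes ran from -0.09 to 0.07, the number of them at an unadjusted p under 0.05 from 0 to 1 (*P2ry12*, without KO milk replicate 2), and the number of clusters called from 0 to 1. Limma called 0 of 22206 clusters, with 357 higher and 369 lower at an unadjusted p under 0.05, and the unmoderated test also called 0 after adjustment. The filter left *Sall1* out. Each gene had 1 cluster, so no other cluster could be tried. Whether the replicate numbers pair the arrays is not known. Same-numbered arrays deviated with correlations of 0.02, -0.13 and 0.02, which cannot settle it with 3 arrays in each group. With the replicate block 0 of the 9 genes passed, 0 clusters were called and the median stayed at -0.0086.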
